A study of Homo sapiens with 11 samples.

Results

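The genes described here encode the actin filament, the non-muscle myosin II motor and proteins that hold filaments together or anchor them. They are ACTB, ACTG1, MYH9, MYH10, MYL6, FLNA, ACTN1, ACTN4 and TLN1. They make up 9 of the 31325 rows of the expression table, each row holding 1 gene symbol. They were chosen by the measured differences between miR-365a-3p and control arrays, since MYH9 and ACTB had strongly lower signals with miR-365a-3p, and their paralogs, a myosin light chain and actin binders were added to them. The differences in both cell lines are therefore given as a description of these 9 genes, with no test.

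The study transfected miR-365a-3p or a control miRNA into cancer cells and measured mRNA on 11 Illumina HumanHT-12 v4 BeadChip arrays. MDA-MB-231, a human breast cancer line with mesenchymal features, had 3 miR-365a-3p and 3 control miRNA arrays. SKOV3, a human ovarian cancer line that the paper names as its derivative SKOV3.ip1, had 3 miR-365a-3p and 2 control miRNA arrays. The miR-365a-3p labels give 48 h of treatment, whereas the description of the series gives 24 h. All groups received a transfected miRNA, so none was left untransfected, and nothing in the labels says whether replicates were separate transfections. The p-values below measure only the spread between these arrays. Signals are log2 values after quantile normalization across the arrays, where a difference of 1 is a doubling if the deposited scale is plain log2, and they run from 7.17 to 13.95 with a median of 7.38. The sources do not say whether a variance-stabilizing transformation was used instead, and every fold below carries that limit. A level at or below 7.43, the 60th percentile of all values, is called the floor here.

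Actin monomers polymerize into filaments. Non-muscle myosin II, a hexamer of heavy chains, regulatory light chains and essential light chains, pulls on these filaments and generates the tension of the cell cortex and of stress fibres. Filamins and alpha-actinins cross-link filaments into networks and bundles, and talin couples them to integrins at focal adhesions. In cancer cells this machinery is known for its part in adhesion, migration and cytokinesis.

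The transfected miRNA is shown because its seed, the part that pairs with target mRNAs, defines which mRNAs it could bind. The RefSeq entry (GRCh38.p14, chr16:14309340-14309361, plus strand) is 22 bases long and equals the sequence that the study's own miRNA list gives, with bases 2 to 8, the seed, in capitals.
hsa-miR-365a-3p: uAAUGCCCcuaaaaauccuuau
The mature sequence of hsa-miR-365b-3p (chr17:31575478-31575499, plus strand) is the same, so both share the seed AAUGCCC. The reverse complement of the seed in DNA letters is GGGCATT. Transcript sequences were not used here, and the 9 mRNAs were not searched for it. The transfected miRNA itself was not measured, and the row of its precursor MIR365-1 differed by 0.39 in MDA-MB-231 cells (limma, adjusted p = 0.0679) and by 0.31 in SKOV3 cells (limma, adjusted p = 0.251).

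The signals of 8 of the 9 genes were lower with miR-365a-3p in both cell lines, and that of MYL6 was higher. The differences ran from -3.67 for MYH9 to 0.53 for MYL6 in MDA-MB-231 cells, and from -3.42 for MYH9 to 0.27 for MYL6 in SKOV3 cells. Their median was -1.60 in MDA-MB-231 and -1.41 in SKOV3 cells, against 0.0064 and 0.0066 over all rows. In MDA-MB-231 cells 7 of the 9 were called lower at an adjusted p under 0.05, where 11.7% of all rows were called lower, and 1 was called higher, where 14.4% of all rows were. In SKOV3 cells 8 were called lower, where 7.11% of all rows were called lower. None was called higher in SKOV3 cells, where 7.25% of all rows were. The treated arrays lay wholly below the controls for 8 genes in each line (all rows: 17.0% in MDA-MB-231, 18.2% in SKOV3 cells) and wholly above them for 1 (21.0% and 23.7%). Since these contrasts chose the genes, nothing is read from those counts. After quantile normalization a signal is relative to the other rows of its array, so a shift shared by all rows is not seen. Fewer cells of a kind cannot be told apart from less RNA per cell.

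**Figure D1:**
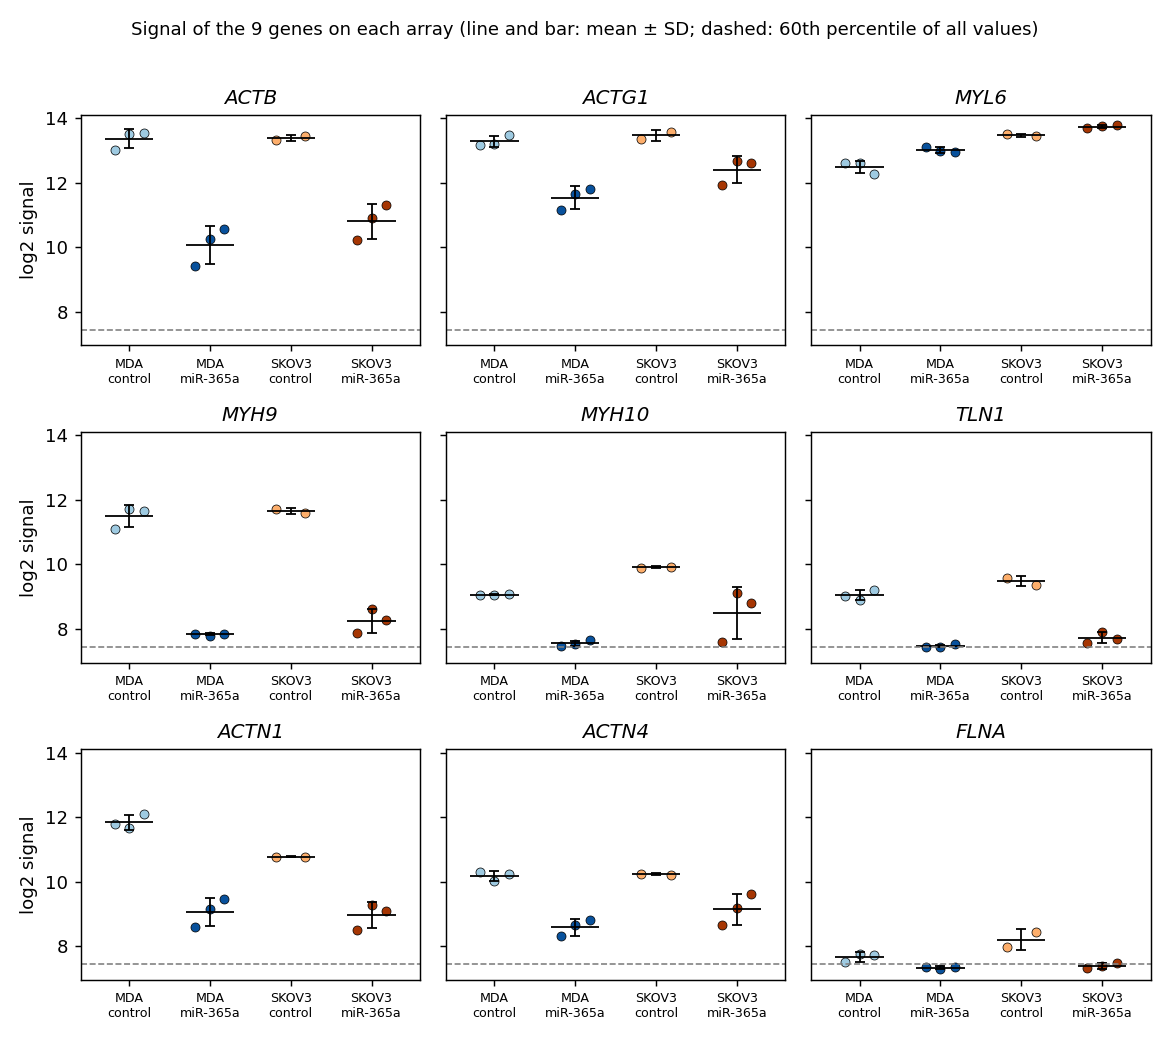
Quantile-normalized log2 signal of each of the 9 genes (y axis) on each of the 11 arrays (points), by group (x axis), with the mean ± SD of the group as line and bar and the floor of 7.43 as a dashed line. The miR-365a-3p arrays lie below every control array of the same cell line for all genes but MYL6, for which they lie above.

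ACTB and ACTG1 encode the cytoplasmic beta and gamma actins, which differ by a few residues near the amino end. ACTB read 13.02, 13.52 and 13.53 on the MDA-MB-231 control arrays and 9.43, 10.24 and 10.55 on the miR-365a-3p arrays. In SKOV3 cells it read 13.33 and 13.46 on the control arrays and 10.22, 10.89 and 11.29 on the miR-365a-3p arrays. The groups did not overlap in either line, and replicate 1 was the lowest miR-365a-3p array in both. The difference was -3.28 ± 0.34 (SE) in MDA-MB-231 cells, 9.72-fold lower on the linear scale, and -2.59 ± 0.38 in SKOV3 cells, 6.02-fold lower. The spread of ACTB among treated arrays (SD 0.58, n = 3, in MDA-MB-231 and SD 0.55, n = 3, in SKOV3) was larger than among controls (SD 0.29, n = 3, and SD 0.09, n = 2).

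ACTG1 read 13.16, 13.19 and 13.48 on the MDA-MB-231 control arrays and 11.14, 11.64 and 11.81 with miR-365a-3p. In SKOV3 cells the readings were 13.35 and 13.58 against 11.92, 12.68 and 12.60. Again the groups did not overlap and replicate 1 was the lowest treated array in each line. The difference was -1.74 ± 0.23 in MDA-MB-231 cells (3.35-fold lower) and -1.07 ± 0.26 in SKOV3 cells (2.10-fold lower). Within each array, the log2 difference ACTB minus ACTG1 changed by -1.54 in MDA-MB-231 and by -1.52 in SKOV3 cells. ACTB was chosen for its strong fall and ACTG1 added as its paralog, so nothing is read from the larger change of ACTB. In the control groups the ACTB mean lay 0.60 and 0.56 below the highest normalized value of 13.95, and the ACTG1 mean 0.68 and 0.49 below it. The maxima of the deposited arrays differed, from 13.45 to 14.53, so these distances cannot show whether probes saturated. Whether saturation made the differences of ACTB and ACTG1 smaller was not tested.

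MYH9 and MYH10 encode the heavy chains of non-muscle myosin IIA and IIB, the ATP-hydrolysing motor subunits. MYH9 read 11.11, 11.72 and 11.66 on the MDA-MB-231 control arrays and 7.85, 7.80 and 7.85 with miR-365a-3p. In SKOV3 cells it read 11.73 and 11.60 against 7.86, 8.61 and 8.27. A gap of 3.25 in MDA-MB-231 and of 2.99 in SKOV3 cells separated the lowest control from the highest treated array. The difference was -3.67 ± 0.20, 12.7-fold lower, in MDA-MB-231 and -3.42 ± 0.23, 10.7-fold lower, in SKOV3 cells. The treated MDA-MB-231 mean stood only 0.40 above the floor, which left little room for a larger measured difference.

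MYH10 read 9.07, 9.04 and 9.07 on the MDA-MB-231 control arrays and 7.48, 7.52 and 7.65 with miR-365a-3p. In SKOV3 cells it read 9.89 and 9.93 against 7.58, 9.11 and 8.80. The treated arrays lay below the controls in both lines, but SKOV3 replicate 1 stood far below the other treated arrays, and the SD of that group was 0.81 (n = 3). The difference was -1.51 ± 0.32 in MDA-MB-231 cells (2.84-fold lower) and -1.41 ± 0.36 in SKOV3 cells (2.66-fold lower), and without SKOV3 miR-365a-3p replicate 1 the SKOV3 difference was -0.94. Within each array, MYH9 minus MYH10 changed by -2.16 in MDA-MB-231 and by -2.01 in SKOV3 cells. MYH9 was chosen for its strong fall and MYH10 added as its paralog, so nothing is read from the larger change of MYH9. The MDA-MB-231 control mean of MYH10 also stood only 1.62 above the floor, less than the fall of MYH9. The treated MDA-MB-231 mean of MYH10 was 0.12 above the floor, which bounds how far its signal could go down.

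MYL6 encodes the essential light chain that binds the neck of the non-muscle and smooth muscle myosin heavy chains. Its signals on the MDA-MB-231 control arrays were 12.60, 12.61 and 12.27, and with miR-365a-3p 13.12, 12.98 and 12.95. In SKOV3 cells they were 13.50 and 13.44 against 13.69, 13.74 and 13.77. The treated arrays lay above the controls in both lines, the opposite order to that of the heavy chains. The difference was 0.53 ± 0.088 in MDA-MB-231 cells (1.44-fold higher) and 0.27 ± 0.098 in SKOV3 cells (1.20-fold higher). With all arrays kept, the other ways of processing put it between 0.42 and 0.90 in MDA-MB-231 and between 0.056, by cyclic loess, and 0.46 in SKOV3 cells. MYL6 lay near or above the 99th percentile, which on the deposited arrays was higher with miR-365a-3p than with control in both lines. The log2 difference MYH9 minus MYL6 changed by -4.19 in MDA-MB-231 and by -3.69 in SKOV3 cells.

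ACTN1 and ACTN4 encode the non-muscle alpha-actinins, antiparallel dimers that bundle actin filaments. ACTN1 read 11.77, 11.65 and 12.10 on the MDA-MB-231 control arrays and 8.58, 9.14 and 9.45 with miR-365a-3p. In SKOV3 cells it read 10.76 and 10.78 against 8.51, 9.27 and 9.09. The treated arrays of both lines occupied much the same range, whereas the control arrays of MDA-MB-231 lay above those of SKOV3. The difference was -2.78 ± 0.25 (6.89-fold lower) in MDA-MB-231 and -1.81 ± 0.28 (3.51-fold lower) in SKOV3 cells. ACTN4 ran from 10.01 to 10.30 on the MDA-MB-231 control arrays and from 8.30 to 8.80 with miR-365a-3p, and in SKOV3 cells it ran from 10.21 to 10.25 and from 8.64 to 9.60. With no overlap in either line, its difference was -1.60 ± 0.22 in MDA-MB-231 cells (3.04-fold lower) and -1.09 ± 0.25 in SKOV3 cells (2.12-fold lower). Within arrays, ACTN1 minus ACTN4 changed by -1.18 in MDA-MB-231 and by -0.72 in SKOV3 cells.

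FLNA encodes filamin A, a large dimer that joins filaments at wide angles. Its control signals were close to the floor in MDA-MB-231 cells. Its signals ran from 7.50 to 7.76 on the MDA-MB-231 control arrays and from 7.28 to 7.36 with miR-365a-3p. In SKOV3 cells they were 7.98 and 8.43 against 7.31, 7.37 and 7.47. The groups did not overlap, but both treated means lay below the floor, so the size of the change has only a bound. MDA-MB-231 arrays had a measured difference of -0.33 ± 0.11, and SKOV3 arrays one of -0.82 ± 0.13.

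TLN1 encodes talin 1, the rod-shaped linker between integrin tails and actin. It ran from 8.91 to 9.21 on the MDA-MB-231 control arrays and from 7.45 to 7.52 with miR-365a-3p, and in SKOV3 cells it was 9.37 and 9.59 against 7.57 to 7.91. No treated array reached a control array. The difference was -1.57 ± 0.10 (2.96-fold lower) in MDA-MB-231 and -1.75 ± 0.11 (3.37-fold lower) in SKOV3 cells, and the treated means were 0.042 and 0.29 above the floor.

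**Figure D2:**
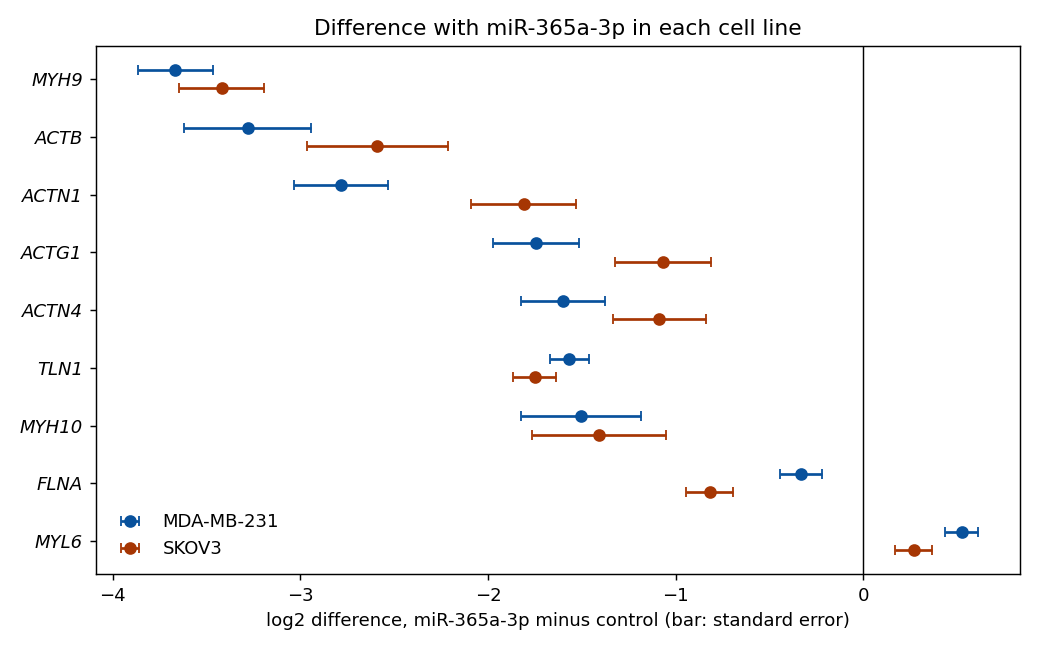
Log2 difference of each gene, miR-365a-3p minus control (x axis, bar: standard error of the fit), in MDA-MB-231 and SKOV3 cells. MYH9 had the lowest value in both lines, -3.67 and -3.42, followed by ACTB, and MYL6 alone lay above 0.

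Replicate 1 with miR-365a-3p was the lowest of the 3 treated arrays for 5 of the 9 genes in MDA-MB-231 and for all 9 in SKOV3 cells. Over all rows with a mean above the floor, the same array was the lowest for 41.2% in MDA-MB-231 and for 37.1% in SKOV3 cells. Without SKOV3 replicate 1, all 8 lower genes still had lower means in SKOV3 cells.

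Whether the response differed between the cell lines was not used to choose the genes and was tested. None of the 9 was called (limma, Benjamini-Hochberg over all rows), where 2.54% of all rows were, and 2 had an unadjusted p under 0.05. The response of ACTN1 in MDA-MB-231 minus that in SKOV3 cells was -0.97, with a 95% interval from -1.83 to -0.11 (limma, adjusted p = 0.307). For FLNA, whose treated means lay below the floor in both lines, the difference of the responses was 0.49, from 0.10 to 0.87 (limma, adjusted p = 0.242). For ACTB it was -0.69, with an interval from -1.84 to 0.46, and for MYH9 -0.25, from -0.94 to 0.44. These intervals leave room for differences of more than 1 on the log2 scale for ACTB and of just under 1 for MYH9, and they do not show that the lines responded alike. Without SKOV3 miR-365a-3p replicate 1, MYH10 was called with a difference of -0.57 (limma, adjusted p = 0.0453), against -0.096 with all arrays.

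The levels of the control arrays differed between the lines for 4 of the 9 genes (limma, Benjamini-Hochberg over all rows), where 16.1% of all rows were called. In MDA-MB-231 cells 3 were lower (all rows: 8.34%) and 1 was higher (all rows: 7.76%). The control arrays of MDA-MB-231 lay wholly below those of SKOV3 for 4 genes and wholly above for 1, which 21.3% and 22.7% of all rows did. All rows include many at the floor, where little difference can be measured, so their shares are no matched background. This contrast uses control arrays that also enter the responses above. MYL6 was lower in MDA-MB-231 than in SKOV3 control cells, with a difference of -0.98 ± 0.098 (limma, adjusted p = 0.000186), with no overlap between the 3 and 2 arrays. FLNA was lower as well, at -0.54 ± 0.13 (limma, adjusted p = 0.0187) and so was TLN1, at -0.44 ± 0.11 (limma, adjusted p = 0.0315). ACTN1 was higher in MDA-MB-231 cells by 1.08 ± 0.28 (limma, adjusted p = 0.0314). For ACTB, ACTG1, MYH9 and ACTN4 the control arrays of the lines overlapped, with differences from -0.19 to -0.036. MYH10 had a difference of -0.85 without overlap and was not called (limma, adjusted p = 0.183), but without SKOV3 miR-365a-3p replicate 1, which widened its spread, it was (limma, adjusted p = 0.000286).

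Of these 4 calls, that of MYL6 alone held under every alternative, and the other 3 were lost with the replicate block, among others. The ACTN1 call was lost on the deposited values (limma, adjusted p = 0.095), by cyclic loess (limma, adjusted p = 0.0535), with centred arrays (limma, adjusted p = 0.0888) and without 1 of 5 single arrays (MDA-MB-231 miR-365a-3p replicate 2, MDA-MB-231 control replicate 1 or 3, or either SKOV3 control), with adjusted p up to 0.161 by limma. FLNA lost it without MDA-MB-231 control replicate 1 (limma, adjusted p = 0.0549) or without SKOV3 control replicate 2 (limma, adjusted p = 0.126). TLN1 lost it with a block shared by both lines (limma, adjusted p = 0.0533) and without MDA-MB-231 miR-365a-3p replicate 1 or 2, MDA-MB-231 control replicate 1 or 2, SKOV3 miR-365a-3p replicate 3 or SKOV3 control replicate 1, where the adjusted p ran from 0.0502 to 0.249 by limma.

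**Figure D3:**
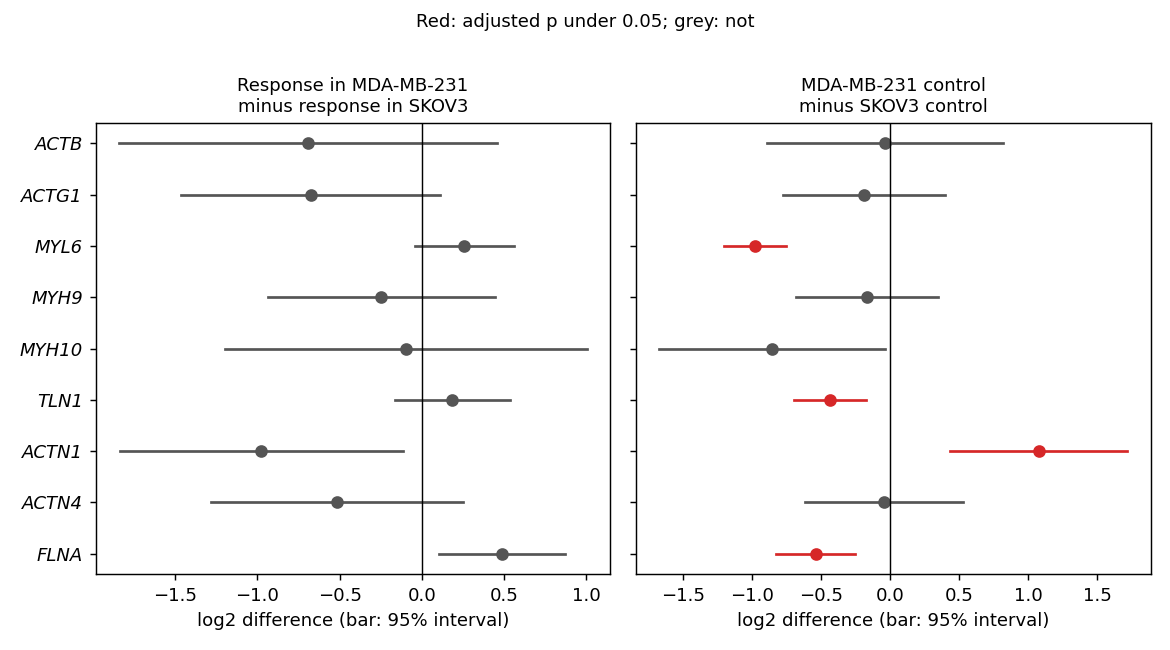
Log2 differences with 95% intervals (x axes) for the 9 genes, on the left the response in MDA-MB-231 minus the response in SKOV3 cells, on the right MDA-MB-231 control minus SKOV3 control arrays. On the left none has an adjusted p under 0.05, and on the right MYL6, TLN1, ACTN1 and FLNA do (red).

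The labelled lines were checked against a few marker genes. ERBB2 read 10.86 in SKOV3 and 7.61 in MDA-MB-231 control cells, and EPCAM 10.36 and 7.63. VIM, the mesenchymal filament, was near the highest value in both lines (13.79 in MDA-MB-231 and 13.70 in SKOV3 control cells). CDH1, the epithelial cadherin, was not above the floor in any group, and neither were the leukocyte genes PTPRC and CD3E.

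Other genes of the actin machinery were listed by function, 100 in 9 groups, of which 99 had a row and 91 were above the floor in at least 1 group of arrays. With miR-365a-3p, 42 of the 99 fell and 16 rose in MDA-MB-231 cells (limma, Benjamini-Hochberg over all rows), which is 42.4% and 16.2%, against 11.7% and 14.4% of all rows. In SKOV3 cells 30 fell and 10 rose, 30.3% and 10.1% against 7.11% and 7.25% of all rows. In both lines 25 fell (all rows: 5.39%) and 9 rose (all rows: 5.76%), no gene was called in opposite directions, and 35 were called in neither line. The median difference of the 99 was -0.14 in MDA-MB-231 and -0.091 in SKOV3 cells. All rows include many at the floor, where little change can be measured, whereas 91 of the 99 were above it. The shares of all rows are thus no matched background, and an excess of falls over expressed rows was not tested. With only rows above the median row tested, 8327 were called in MDA-MB-231 cells, against 8174 of all rows. In SKOV3 cells 5132 were, against 4498. More calls from fewer rows mean a larger share called than over all rows. Of the calls with this filter in MDA-MB-231 cells, 43.9% were lower (3652 lower, 4675 higher). Among related genes 73.3% were (44 and 16). In SKOV3 cells these shares were 45.4% (2328 and 2804) and 72.1% (31 and 12). The balance of directions depends on the scaling. Of all called rows in MDA-MB-231 cells 44.8% were lower, and on the deposited values 71.2% were. In SKOV3 cells the shares were 49.5% and 78.6%. For the related genes of MDA-MB-231 cells the split moved from 42 and 16 to 53 and 10 on the deposited values.

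**Figure D4:**
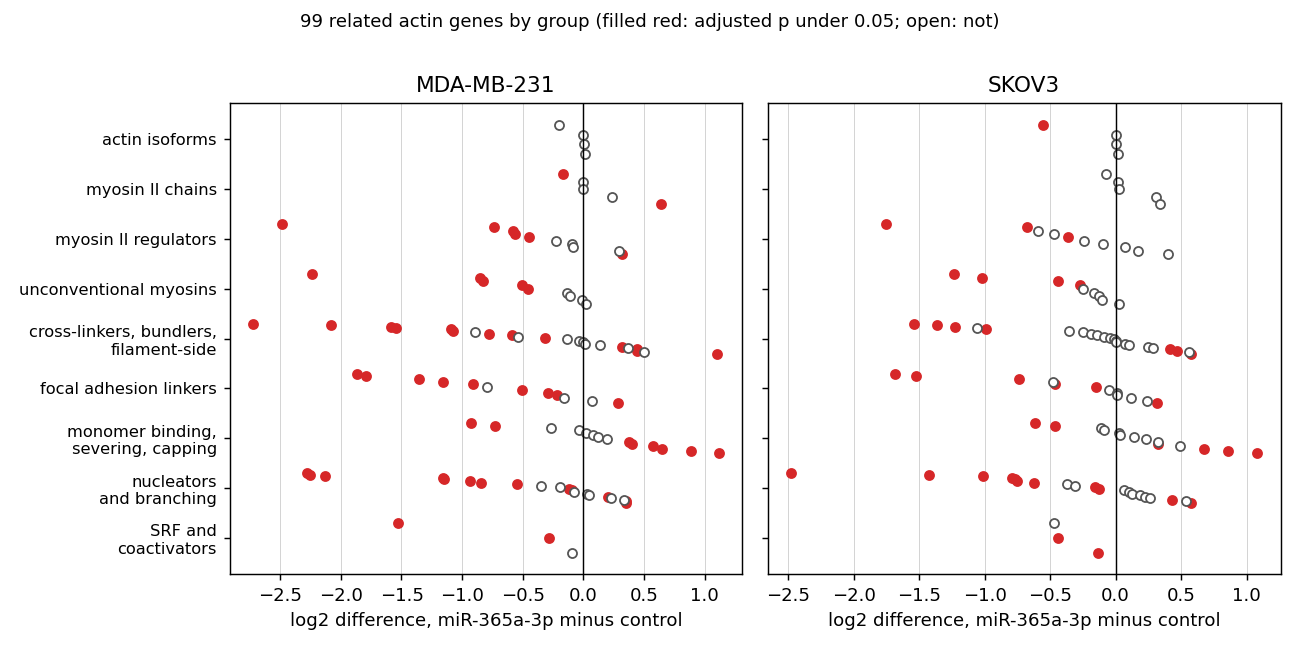
Log2 difference, miR-365a-3p minus control (x axes), of the 99 related genes in 9 groups (y axis) in MDA-MB-231 (left) and SKOV3 cells (right), with filled points for an adjusted p under 0.05. RHOA lay at -2.48 in MDA-MB-231 and EVL at -2.48 in SKOV3 cells, and CAPZA2 (1.12 and 1.08) had the highest values.

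The muscle actins ACTA1, ACTC1 and ACTG2 were below the floor in all 4 groups, so no change of theirs could be measured. ACTA2, a smooth muscle actin that was named after its value was seen, fell by 0.55 in SKOV3 cells (limma, adjusted p = 0.0059). Among the other myosin II chains, MYL9, a regulatory light chain, fell by 0.17 in MDA-MB-231 cells (limma, adjusted p = 0.0112) to a mean below the floor, which makes that value a bound. In SKOV3 cells MYL9 was below the floor in both groups, and its difference of 0.019 is no measure of a response. MYL12A, another regulatory light chain, differed by 0.24 and 0.34, without a call in either line (limma, adjusted p = 0.220 and 0.161). Its arrays lay above the controls in both lines, and on the deposited values it was called higher in both. MYH14, the heavy chain of myosin IIC, was below the floor in all 4 groups, with differences of -0.0022 and -0.076 and no call.

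Of the 10 regulators of myosin II, 5 fell and 1 rose in MDA-MB-231 cells, and 3 fell and 0 rose in SKOV3 cells. Of those that fell, 2 did so in both lines. RHOA, the GTPase that switches on the kinases ROCK1 and ROCK2, went from 12.40 to 9.92 in MDA-MB-231 and from 12.20 to 10.44 in SKOV3 cells. It fell by 2.48 ± 0.21 and by 1.76 ± 0.23 (limma, adjusted p = 7.24e-05 and 0.0015). CDC42BPB, a kinase of the MRCK family that acts on myosin light chain, fell by 0.45 and 0.68, the first to a mean below the floor and the second to 0.096 above it.

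Of the 9 unconventional myosins, which move cargo or membrane along actin, 5 fell in MDA-MB-231 and 4 in SKOV3 cells, and 2 fell in both. MYO10, the motor of filopodial tips, fell by 2.24 and 1.23, and MYO9B, a motor with a GTPase-activating domain, fell by 0.85 and 0.44. Their treated means stood 0.27 and 0.32 (MYO10) and 0.18 and 0.050 (MYO9B) above the floor, which left little room for larger falls. None of the group rose in either line by limma, at an unadjusted p under 0.05 either (0 and 0 genes).

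Among the 22 cross-linkers, bundlers and other filament-side proteins, 9 fell and 4 rose in MDA-MB-231 cells, and 4 fell and 3 rose in SKOV3 cells. PALLD, palladin, a scaffold that binds alpha-actinin, went from 9.27 to 7.73 in MDA-MB-231 cells and from 9.41 to 7.87 in SKOV3 cells, a fall of 1.55 ± 0.052 and of 1.54 ± 0.058 (limma, adjusted p = 1.11e-06 and 3.58e-06). TPM1, a tropomyosin that winds along the filament, rose by 0.44 and 0.47, and TAGLN, transgelin, rose by 0.32 and 0.58. The rise of TPM1 lost its call in both lines on the deposited values (limma, adjusted p = 0.305 and 0.176), as did that of TAGLN in MDA-MB-231 cells (limma, adjusted p = 0.413). Over all alternatives the TPM1 call was lost in 6 in MDA-MB-231 and in 10 in SKOV3 cells, and the TAGLN call of MDA-MB-231 cells in 9, single arrays left out among them. TPM4, another tropomyosin, differed by -0.14 and 0.074, without a call.

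The 12 other focal adhesion linkers held 8 that fell and 1 that rose in MDA-MB-231 cells, and 5 and 1 in SKOV3 cells. ZYX, zyxin, which gathers at strained filaments, fell by 1.86 and 1.68, and TNS3, tensin 3, by 1.80 and 1.52. The treated means of ZYX stood 0.13 and 0.15 above the floor and those of TNS3 0.13 and 0.42, which left little room for larger falls. VCL, vinculin, which binds talin and actin, fell by 1.36 ± 0.43 in MDA-MB-231 cells (limma, adjusted p = 0.0466) and differed by -0.47 in SKOV3 cells (limma, adjusted p = 0.692). The VCL call was lost when any of 8 single arrays was left out or with the replicate block, with adjusted p from 0.0658 to 0.149 by limma. TES, testin, rose by 0.28 and 0.32, a call that was lost on the deposited values in both lines (limma, adjusted p = 0.841 and 0.688).

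The 14 proteins that bind monomers or sever and cap filaments held 6 that rose and 2 that fell in MDA-MB-231 cells, and 4 that rose and 2 that fell in SKOV3 cells. PFN1, profilin, which feeds monomers to growing ends, fell by 0.93 and 0.62, and CFL1, cofilin, which severs filaments, by 0.73 and 0.46. CAPZA2 and CAPZA1, the alpha subunits of capping protein, rose by 1.12 and 1.08 and by 0.88 and 0.86. In SKOV3 cells the call of CFL1 was lost under 9 alternatives, with adjusted p up to 0.275 by limma, that of PFN1 under 6, and those of CAPZA2 and CAPZA1 under 2 each. Without SKOV3 control replicate 1 the adjusted p was 0.159 for PFN1, 0.233 for CFL1, 0.101 for CAPZA2 and 0.0571 for CAPZA1 by limma, and without replicate 2 it was 0.116, 0.0700, 0.154 and 0.0758. TMSB10, a thymosin that sequesters monomers, differed by 0.076 and -0.11.

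Of the 20 nucleators and branching factors, 10 fell and 3 rose in MDA-MB-231 cells, and 9 fell and 2 rose in SKOV3 cells. EVL, an Ena/VASP elongation factor, fell by 2.13 ± 0.19 and 2.48 ± 0.21 (limma, adjusted p = 0.000101 and 0.00017). Its treated means stood 0.17 above the floor in MDA-MB-231 and 0.69 above it in SKOV3 cells. ACTR2, the Arp2 subunit of the branching Arp2/3 complex, fell by 2.28 and 1.43, the second with an adjusted p of 0.0447 by limma. That call was lost under 10 alternatives, with adjusted p from 0.0505 to 0.256 by limma, the highest without SKOV3 control replicate 2. ARPC2, a subunit of the same complex, rose by 0.36 and 0.57.

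SRF is the transcription factor that drives many actin and myosin genes, and its coactivators of the MRTF family (deposited as MKL1 and MKL2) are held back by free actin monomers. SRF went from 9.65 to 8.11 in MDA-MB-231 cells, a fall of 1.53 ± 0.26 (limma, adjusted p = 0.00259), and from 8.83 to 8.36 in SKOV3 cells, a difference of -0.47 ± 0.29 (limma, adjusted p = 0.420). MKL2 fell by 0.28 and 0.44. MKL1, with means below the floor in all 4 groups, was called lower by 0.13 in SKOV3 cells and differed by -0.090 in MDA-MB-231 cells (limma, adjusted p = 0.0520). Below the floor these MKL1 values are no measure of a response. The SKOV3 call was lost under 6 alternatives, with adjusted p up to 0.185 by limma, and an MDA-MB-231 call was gained under 4. The treated means of MKL2 were below the floor in both lines, so its falls are bounds.

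SRF binds the CArG box, a run of A and T between CC and GG that reads the same motif on both strands. The 250 bases before the start of each gene were searched for it in the RefSeq promoters of GRCh38.p14, in which 8 of the 9 genes had an entry (not ACTB). A match stood before 3 of the 8 genes, and before 394 of all 27305 genes, 1.44%. Counted by promoter, since a gene can have several starts, it stood in 3 of their 12 and in 407 of all 35116, 1.16%. The windows are shown because they hold the motif, in capitals, in 3 genes with lower signals, all on the minus strand.
ACTG1, chr17:81512874-81512903: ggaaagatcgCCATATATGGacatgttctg
ACTN1, chr14:68977718-68977747: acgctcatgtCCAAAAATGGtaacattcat
FLNA, chrX:154374709-154374738: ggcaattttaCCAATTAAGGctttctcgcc
The motif lies 94 to 85 bases before the start in ACTG1 and in FLNA, and 171 to 162 bases before it in 1 of the starts of ACTN1. A match is a description of these letters, and binding of SRF was not measured.

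Rows whose signals were most like those of MYH9 and ACTB were ranked by Pearson's r over the 11 arrays, among the 12946 rows with a mean above the floor. The ranking is a description, and r mostly mirrors the gap between treated and control arrays, which the choice of MYH9 and ACTB used. Closest to MYH9 were SMARCA4 (r = 0.998), the motor subunit of a chromatin remodelling complex, SF3B4 (r = 0.996), a splicing factor, ZFP36L1 (r = 0.996), an mRNA decay factor, CASP2 (r = 0.995), a caspase, and RRBP1 (r = 0.995), a ribosome-binding protein of the endoplasmic reticulum. Closest to ACTB were TUBB (r = 0.992), a beta tubulin, GMCL1 (r = 0.989), NUP93 (r = 0.988), a nuclear pore protein, ARHGDIA (r = 0.988), an inhibitor of GTPase cycling, and CCNI (r = 0.987), a cyclin. TUBB differed by -1.41 in MDA-MB-231 and by -1.03 in SKOV3 cells. Of the other members, TLN1 (r = 0.983) and ACTB (r = 0.975) were most like MYH9, and MYL6 (r = -0.427) was least like it.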

How the data were processed

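The authors labelled amplified cRNA with biotin, hybridized it to HumanHT-12 v4 BeadChips, normalized the data by quantiles with lumi and deposited 1 value per gene symbol and array, read here as log2 from their range. Whether the transformation was log2 or variance stabilizing, the background correction, and how probes of a gene were joined are not given in the sources used here. Precision is limited by how many arrays there are. The deposited columns did not share a distribution. Their 75th percentiles ran from 7.56 to 7.65 in treated and from 7.86 to 7.93 in control MDA-MB-231 arrays. In SKOV3 arrays they ran from 7.67 to 7.80 and from 7.98 to 8.04. The 99th percentiles had the opposite order, from 12.51 to 12.64 in treated and from 12.28 to 12.32 in control MDA-MB-231 arrays. In SKOV3 arrays these ran from 12.41 to 12.49 and from 12.21 to 12.31. All 11 arrays were therefore quantile normalized together (R 4.3.3, limma 3.58.1).

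A model of 4 group means was fitted to all 31325 rows and moderated with eBayes, with Benjamini-Hochberg adjustment over all rows and a threshold of 0.05. The contrasts were miR-365a-3p minus control in each line, their difference, and the controls of the lines. The fit was tested on simulated data. The members, the related genes and the tests were chosen with earlier results of these data known. Named are all members; MYL9, MYL12A, MYL12B, MYH14, VCL, ZYX, TPM1, TPM4, CFL1, PFN1, TMSB10, SRF, MKL1 and MKL2; up to 2 genes per list group with the largest fall and up to 2 with the largest rise, by the mean over both lines, among those called in both; and the 5 rows most like MYH9 and ACTB. MYL12B could not be matched to a single row, and 1 gene of the list is not reported here by name. Symbols were updated with the RefSeq gene table of GRCh38.p14.

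Alternatives were the deposited values, cyclic loess, median centring, a filter on dim rows, a replicate block, an intensity trend and each array left out. Across the lines, same-numbered miR-365a-3p arrays deviated together (r = 0.666, 0.295 and 0.337), but same-numbered controls did not (r = 0.115 and -0.113). MDA-MB-231 miR-365a-3p replicate 3 was closer to SKOV3 replicate 2 (r = 0.598) than to SKOV3 replicate 3. The other differently numbered miR-365a-3p pairs had r from -0.696 to 0.0451. A replicate block shared by both lines was added after seeing the data. The labels give only the numbers. With this block, 537 rows instead of 796 differed in response.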

Additional observations from a re-analysis of the deposited data

Results flagged for a closer look

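None of the 9 actin, myosin and cross-linker genes was called for a differing response between the cell lines (2 at an unadjusted p under 0.05). Of the 99 related genes 11 were called (difference of the responses, MDA-MB-231 minus SKOV3, limma with an adjusted p under 0.05). Over all rows 2.54% were called, a share that includes many rows at the floor and is no matched background. Nothing is read from the counts of the 9 and of the 99 genes. Of the 11, 10 are described. Those not covered by the naming rule were chosen after their values were seen. FLNC, filamin C, had a difference of the responses of -2.04, as it fell by 2.08 in MDA-MB-231 cells and differed by -0.039 in SKOV3 cells, where it was below the floor in both groups (7.29 and 7.26), so a fall could not have been measured there. MYO18A, an unconventional myosin, had a difference of 0.88, but its MDA-MB-231 control mean was only 0.061 above the floor, against 1.03 in SKOV3 cells, which left little room for a fall in MDA-MB-231 cells. Both kept the call under all 18 alternatives. LCP1, a plastin, had a difference of 0.86 and lost the call only with the replicate block (limma, adjusted p = 0.130), and its SKOV3 control mean was below the floor. The other 7 described here lost it under 8 to 14 of the 18 alternatives. They were CORO1C (-1.24), MYO10 (-1.01), PXN (-0.70) and MYO9B (-0.41), with the larger fall in MDA-MB-231 cells, and RHOB (0.41), MYLK (0.27) and MYO1D (0.27). RHOB rose by 0.32 in MDA-MB-231 cells (limma, adjusted p = 0.0022), but by only 0.036 on the deposited values. In SKOV3 cells RHOB differed by -0.092 (limma, adjusted p = 0.431). MYLK and MYO1D were below the floor in both MDA-MB-231 groups, so their responses there were not measurable. For FLNC, MYO10, MYO9B, PXN and CORO1C, which fell more in MDA-MB-231 cells, and for MYO18A, MYLK and MYO1D, which fell more in SKOV3 cells, the line with the larger fall also had the higher control signal, and so more room above the floor. The part of the floor in these differences was not tested.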

How the results depend on the processing

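All 8 lower genes kept lower means, and MYL6 a higher one, in both lines under each alternative. With the replicate block within each line, 1 of the 9 genes instead of 4 differed between the control groups (limma, adjusted p = 0.151 for ACTN1, 0.176 for FLNA and 0.272 for TLN1), 123 rows instead of 796 differed in response, and 2278 rows instead of 5043 differed between controls. Within a line, same-numbered treated and control arrays deviated together weakly or not at all (r = -0.126, 0.0385 and 0.201 in MDA-MB-231, 0.0411 and -0.0649 in SKOV3). Not every array correlated best with its own number. With 3 or 2 arrays per group, these values cannot decide whether the numbers pair treated with control arrays of a line. The 2 SKOV3 controls deviate from their mean in opposite ways by construction. On the deposited values 10 instead of 16 related genes rose in MDA-MB-231 cells. Leaving out single arrays gave 0 to 1 of the 9 genes with differing responses (0 with all arrays), 1 to 5 differing between controls, 19 to 34 related genes that fell in SKOV3 cells and 3 to 10 that rose. Over all rows it gave 1769 to 5021 called in SKOV3 cells (4498 with all arrays), 313 to 1227 in response and 2989 to 5698 between controls. The lowest counts of related genes came without SKOV3 control replicate 2 (19 fell, 3 rose) and replicate 1 (3 rose), and those between controls for the 9 genes without MDA-MB-231 control replicate 1. Without SKOV3 control replicate 1 or 2, 2250 and 1769 rows were called in SKOV3 cells, 313 and 320 in response and 2989 and 3004 between controls. A lone remaining SKOV3 control array was assumed to vary like the other groups. Over single genes, 1495 values kept their side of the threshold, 95 lost a call and 15 gained one. Another 11 were classed as moved, apart from those that lost or gained a call. Signals near the floor bound the falls of FLNA, TLN1, MYH10 and MYH9. ACTB, ACTG1 and MYL6 had signals near the highest normalized value, and whether saturation limited their differences was not tested.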
